A study of Mus musculus with 7 samples.

Results

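IRF4 binding in mouse regulatory T (Treg) cells with RelA was compared with IRF4 binding in Treg cells lacking RelA (p65), position by position, through the rank that each position held in its own peak list. The positions compared were 3594 pairs of IRF4 peak summits on chromosomes 1 to 19 and X. A pair was made of a wild-type (WT) summit and a RelA-deficient (p65KO) summit that were each other's nearest neighbour and lay no more than 200 bp apart. The pairs came from 5533 WT and 4270 p65KO summits there, out of 10739 summits in the 3 lists of the series, which also holds a p65 list from WT cells. The WT list pools 3 samples and the p65KO list 2, each from splenic Treg cells of C57BL/6 background stimulated through CD3 and CD28 by antibodies for 48 h, and precipitated with anti-IRF4 (M-17). The p65 list pools 2 WT samples that received PMA and ionomycin for 30 min, precipitated with anti-NFkB/p65 (C-20). The labels do not say whether samples came from separate animals. The labels do not say how RelA was removed, and they give neither the age nor the sex of the animals. A list of binding positions holds no expression, so the Treg label was not checked against marker genes.

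IRF4 is a transcription factor induced by antigen receptor signalling that effector Treg cells need. It binds DNA weakly alone and usually occupies composite elements together with a partner, either an AP-1 dimer that contains BATF or an ETS-family factor. RelA is an activating subunit of NF-κB, which is switched on by receptors of the TNF receptor superfamily and by the T cell receptor with CD28. NF-κB also takes part in the induction of Irf4 itself. The comparison asks where IRF4 sits in the genome of Treg cells that lack RelA.

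The authors' peak score, a significance value on a −log10 scale, stood for peak strength. The median score was 26.5 in the WT list (quartiles 18.1 and 43.7) and 27.3 in the p65KO list (18.8 and 45.1), and the highest were 319 and 350.7. Each summit was given its percentile within its own list, where 100 is the strongest, and the shift of a pair was the p65KO percentile minus the WT percentile, in points. Each genotype has 1 list with its replicates pooled, so no value here has a replicate error, no difference was tested, and read depth is unknown. Lists of different length and of 3 against 2 samples give a site different percentiles even where its binding is alike, so a shift describes rank and not an amount of IRF4. Every peak was called without an input library. Positions are mm9 coordinates, 1-based, with no gene or gene feature assigned.

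The 5 strongest IRF4 positions were the same in both lists. The 10 pairs with the highest mean percentile shifted by -0.18 to 0.08 points, and the first 5 of them held the same order in both lists. They were led by chr9:35112991, whose WT score was 319 and p65KO score 350.7. The next were chr16:11144200 (305 and 327), chr3:5860628 (279 and 296), chr11:61458225 (267 and 292) and chr16:57391617 (251 and 273). The others were chr8:48026863, chr6:47571288, chr10:44164415, chr9:95052344 and chr18:65638959, with WT scores between 223 and 249 and p65KO scores between 219 and 261. A p65 summit lay within 200 bp of 4 of the 10, at 4 to 12 bp from the WT IRF4 summit. The same held for 3.09% of all pairs and for 36 of the 551 pairs of the highest WT decile (10% of the list). No list had an input library, so signal present in any precipitation could not be told apart from binding at these positions.

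Agreement in rank was closest in the highest decile of each list and looser in the deciles below, though the percentile scale also ends at the top. Of the 551 paired summits in the highest WT decile (10% of the list), 361 (65.5%) were in the highest p65KO decile too, and 488 were in the highest or the next decile. In the fifth decile of the WT list 45 of 341 pairs (13.2%) kept their decile, the lowest share of any WT decile. In the lowest WT decile 63 of 163 (38.65%) kept theirs. A pair can leave an end decile on 1 side only, so shares of end and middle deciles are not directly comparable. Seen from the p65KO list, 361 of the 427 summits of its highest decile (84.5%) were also in the highest WT decile, and all 427 were paired. The quartiles of the shift were -6.44 and 0.07 points for pairs of the highest WT decile, against -31.25 and 2.42 points in the seventh decile. Across all 3594 pairs, scores of the genotypes had a Spearman's rho of 0.746, given as a description over summits that share the same 2 pooled lists. Within the 361 pairs that were in the highest decile of both lists it was 0.664.

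**Figure D1:**
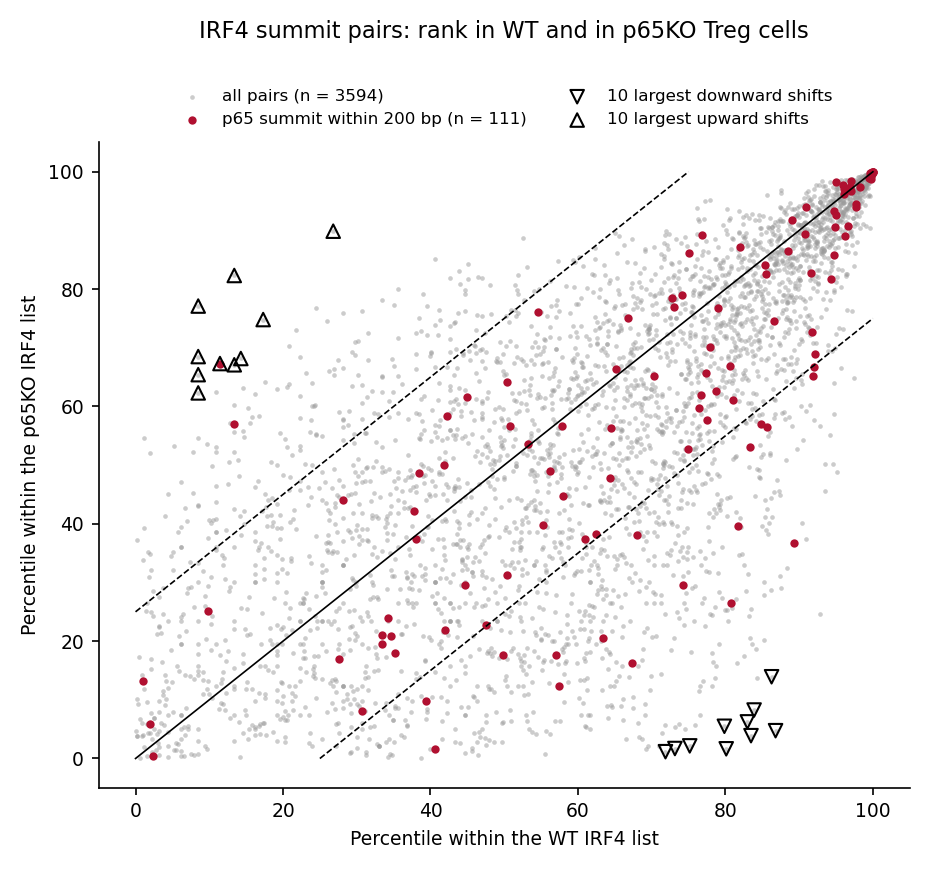
Percentile of each IRF4 summit pair within the WT list (x axis) and within the p65KO list (y axis), on a scale from 0 to 100. Grey points are the 3594 pairs and red points the 111 with a p65 summit within 200 bp; triangles mark the 10 largest shifts each way, the solid line equal percentiles and the dashed lines shifts of 25 points. Points crowd around the solid line at the upper right and spread widely below.

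A lower rank in p65KO was more frequent than a higher one when whole lists were ranked, and this imbalance did not survive ranking over equal numbers. With whole lists, 607 pairs (16.9%) were at least 25 points lower in p65KO and 217 (6.04%) at least 25 points higher, and the remaining 2770 were within 25 points. The median shift was -3.49 points (quartiles -17.05 and 4.89). When both genotypes were ranked over the 3594 pairs alone, 410 pairs (11.4%) were lower and 375 (10.4%) higher, with a median of 0.22 points. With the WT list reduced to as many summits as the p65KO list, the order turned, with 339 pairs lower and 419 higher. The WT list held more weak summits without a partner, and these raise the percentile of every WT summit above them: the 1939 unpaired WT summits had a median percentile of 25.80, and 1588 of them were below the middle of the list.

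The shift depended on where a pair started. Numbering WT deciles from 1 (lowest) to 10, pairs of decile 2 had a median shift of 13.50 points, those of decile 5 -2.66 points and those of decile 8 -13.09 points. With ranks over the pairs alone these medians were 15.37, 6.62 and -7.63 points. Weak WT positions thus tended to rank higher in p65KO, and upper-middle ones lower, under both rankings. Grouped by the p65KO list instead, the lowest p65KO decile had a median of -24.47 points and the seventh -0.51 points. A pair grouped by a low value in 1 list has more room to be higher in the other, so nothing further is read from these slopes. No pair of the highest WT decile was 25 points higher, since the scale ends there, and 23 of its 551 pairs (4.17%) were 25 points lower, against 16.9% of all pairs.

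**Figure D2:**
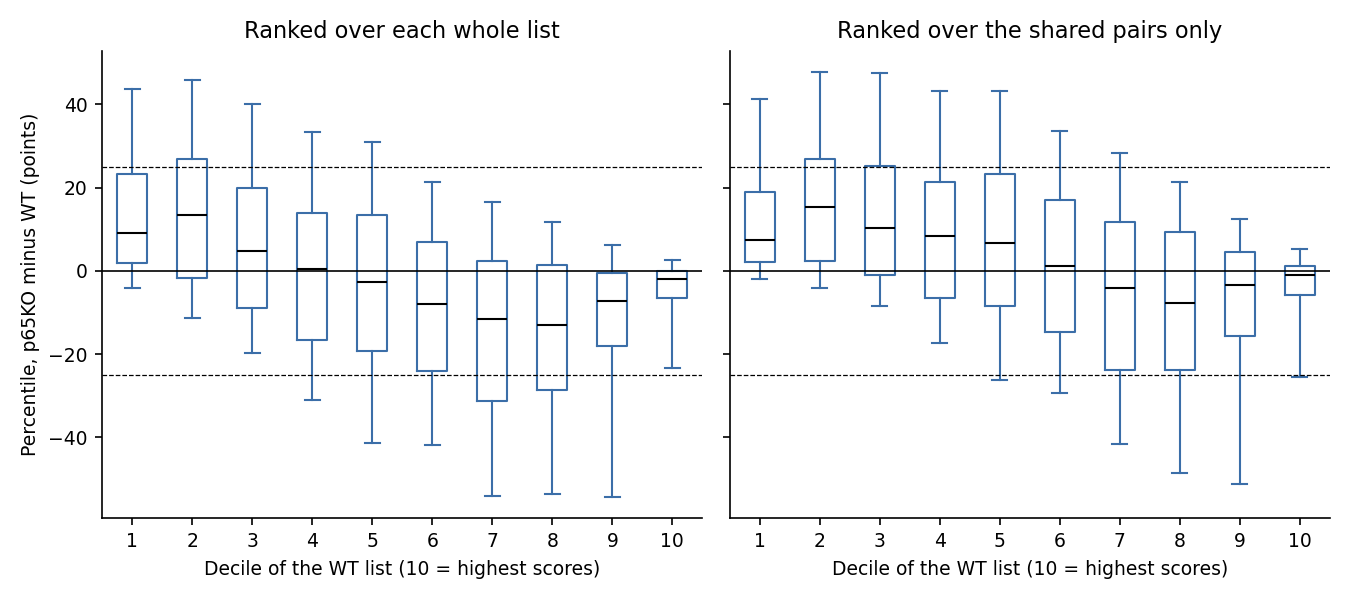
Shift in percentile (p65KO minus WT, points, y axis) for pairs grouped by decile of the WT list (x axis, 10 = highest scores), with ranks over whole lists (left) and over the shared pairs (right). Boxes give the median and quartiles, whiskers the 5th and 95th percentiles, and dashed lines 25 points; the medians pass from above 0 in the low deciles to below 0 in the upper ones in both panels, and the box is narrowest in the highest decile.

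The largest downward shifts joined upper-middle WT positions to positions at the bottom of the p65KO list. A fall of this size needs a high start and a low end on the percentile scale, so this follows largely from the choice. The 10 largest lay between -82.06 and -70.71 points, with WT scores from 40.6 to 64.5 and p65KO scores from 10.6 to 16.1. At chr13:113233557 the score was 64.5 in WT and 13.1 in p65KO, percentiles 86.80 and 4.74. At chr2:52166313 it was 56.5 and 12.6 (percentiles 83.47 and 3.89), and at chr15:54833846 it was 50.5 and 11.2 (80.11 and 1.65). The list went on with chr1:163336711, chr3:84533132, chr1:53355875, chr12:4742881, chr4:43985041, chr15:76999444 and chr2:125603199. None had a p65 summit within 200 bp, where 3.09% of all pairs had, so 10 pairs are too few to read this. The nearest p65 summit to any of them was 708747 bp away. The p65 list held 605 summits on these chromosomes, and distances to p65 were not compared with those of all pairs. Ranked over the pairs alone, the same 10 shifted by -76.79 to -58.07 points.

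Their partner summits were also less well aligned than most. The 10 pairs had a median offset of 56 bp between the WT and the p65KO summit, with a single pair, chr1:53355875, at the same base. The median was 17 bp over all pairs and 40 bp over the 255 pairs in the lowest p65KO decile, to which 9 of the 10 belonged. It was 48 bp over the 17 pairs of that decile with a WT percentile of at least 70, which include those 9.

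The largest upward shifts started low in the WT list, as rises of this size must on the percentile scale. The 10 largest lay between 53.70 and 68.93 points, with WT scores from 13.8 to 18.6 and p65KO scores from 33.9 to 77.7. At chr1:138794927 the score was 15.2 in WT and 56.9 in p65KO, percentiles 13.39 and 82.32. At chr3:10682160 it was 13.8 and 48.1 (8.50 and 77.11). The highest p65KO score of the 10 was at chr16:95494903, with 18.6 in WT and 77.7 in p65KO (26.81 and 89.87), and there the summits were 1 bp apart. Next came chr2:135937958, chr11:86300881, chr16:57512981, chr10:13806127, chr1:87894952, chr3:68963595 and chr1:195090296. Of these 10, chr10:13806127 had a p65 summit within 200 bp (3.09% of all pairs had), 9 bp away. Weak scores are shared by many summits: 4 of the 10 had the WT score of 13.8 that 53 WT summits carry, and they share the percentile of 8.50.

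**Figure D3:**
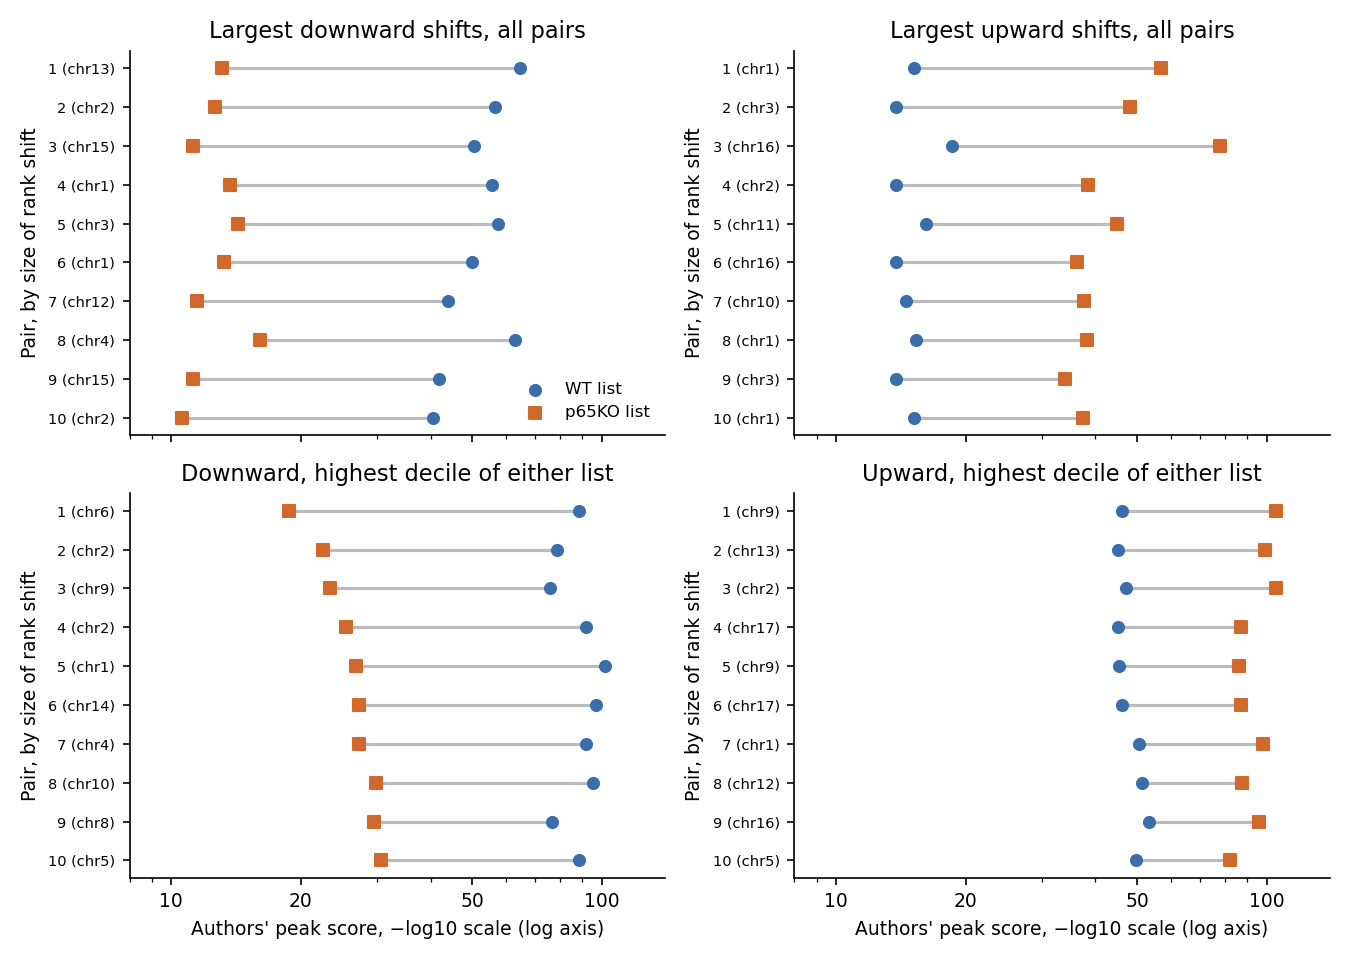
Authors' peak score (x axis, log axis) in the WT list (blue circles) and in the p65KO list (orange squares) for the 10 largest downward (left) and upward (right) rank shifts, over all pairs (top) and among pairs in the highest decile of either list (bottom), each pair on a line of its own with its chromosome. WT scores of the upper left panel run from 40.6 to 64.5 and p65KO scores from 10.6 to 16.1. The pairs were chosen by their shift, so the gap between the lists follows from the choice.

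Among strong positions the shifts were smaller, and the downward ones reached further. There were 617 pairs with a summit in the highest decile of either list, of which 23 (3.73%, against 16.9% of all pairs) were at least 25 points lower in p65KO and none at least 25 points higher (6.04% of all pairs). The 10 largest downward shifts here lay between -68.08 and -36.16 points, and the upward ones between 11.28 and 17.91 points. With ranks over the pairs the upward range was 19.56 to 28.21 points, and 29 of the 617 (4.70%, against 11.4% of all pairs) were at least 25 points lower and 5 (0.810%, against 10.4%) higher. The percentile scale leaves pairs of the highest WT decile little room upward. It does not limit in this way a rise of pairs in the highest decile of the p65KO list alone. With whole lists ranked, the 190 pairs in the highest decile of WT alone reached -68.08 points. The 66 pairs in that of p65KO alone reached 17.91 points. What lies behind this difference was not tested.

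The strong position with the largest downward shift was chr6:129527259, whose WT score was 88.2 and p65KO score 18.7, with percentiles of 92.78 and 24.70. It was followed by chr2:155340668 (78.7 and 22.4), chr9:96614713 (75.8 and 23.3) and chr2:158276719 (92.0 and 25.4). The highest WT score among the 10 was 101.5, at chr1:135796416, where the p65KO score was 26.8 and the summits fell on the same base. The others were chr14:71198646, chr4:88691418, chr10:59399359, chr8:36695528 and chr5:72641597, with WT scores between 76.7 and 97.0 and p65KO scores between 27.3 and 30.6. The 10 had a median offset of 10 bp, close to the 9 bp of all 617 pairs. None had a p65 summit within 200 bp, where 3.09% of all pairs and 36 of the 551 pairs of the highest WT decile had. From 10 pairs this cannot be read. The nearest was 1697096 bp away, a distance not compared with those of other pairs.

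In the other direction chr9:123844260 led, whose WT score was 46.2 and p65KO score 105 (percentiles 77.18 and 95.09). Next were chr13:100016278 (45.0 and 99.1), chr2:128283712 (47.0 and 105) and chr17:84732409 (45.1 and 87.0). The others were chr9:121270147, chr17:55841953, chr1:132890544, chr12:75996183, chr16:38403978 and chr5:103871346, with WT scores from 45.4 to 53.3 and p65KO scores from 82.0 to 97.9. In all 10 the p65KO score exceeded the WT score, which follows from choosing them by upward shift. None had a p65 summit within 200 bp, where 3.09% of all pairs and 28 of the 427 pairs of the highest p65KO decile had. These 10 are again too few to read this. The nearest was 90790 bp away, a distance likewise not compared.

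IRF4 positions beside a strongly shifted one were shifted in its direction in counts too small to set apart from those of all pairs. Around the 40 shifted positions named above, 15 had another pair within 50 kb. Beside downward positions 6 of 11 neighbouring pairs were lower in p65KO, where 62.0% of all pairs were, and 2 of the 11 by at least 25 points (16.9% of all pairs). Beside upward positions 8 of 22 were higher, where 38.0% of all pairs were, and 1 of the 22 by at least 25 points (6.04% of all pairs). The chromosome 13 position lay among 5 other pairs. Its neighbour 3976 bp above scored 32.4 in WT and 53.1 in p65KO, and another 15414 bp above scored 124 and 153. Of these 5 neighbours, 1 ranked lower in p65KO.

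The upward shifts at chr2:128283712 and chr1:87894952 lay in similarly dense loci, chosen for display with the chromosome 13 locus because they had at least 6 WT summits within 50 kb, after their values were seen. Around chr2:128283712, where the score was 47.0 in WT and 105 in p65KO, the pair 24190 bp below scored 48.1 in WT and 16.01 in p65KO, a shift of -64.96 points. The pair 8475 bp below scored 64.0 and 33.3, and the pair 7834 bp above scored 65.2 and 62.4. The central position thus was exceeded in score by 4 others of the locus in WT and by none in p65KO. Around chr1:87894952 (15.4 and 38.3) the pair 40094 bp below scored 48.6 and 20.6, whereas the strongest, 24838 bp below, scored 98.4 and 104.

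**Figure D4:**
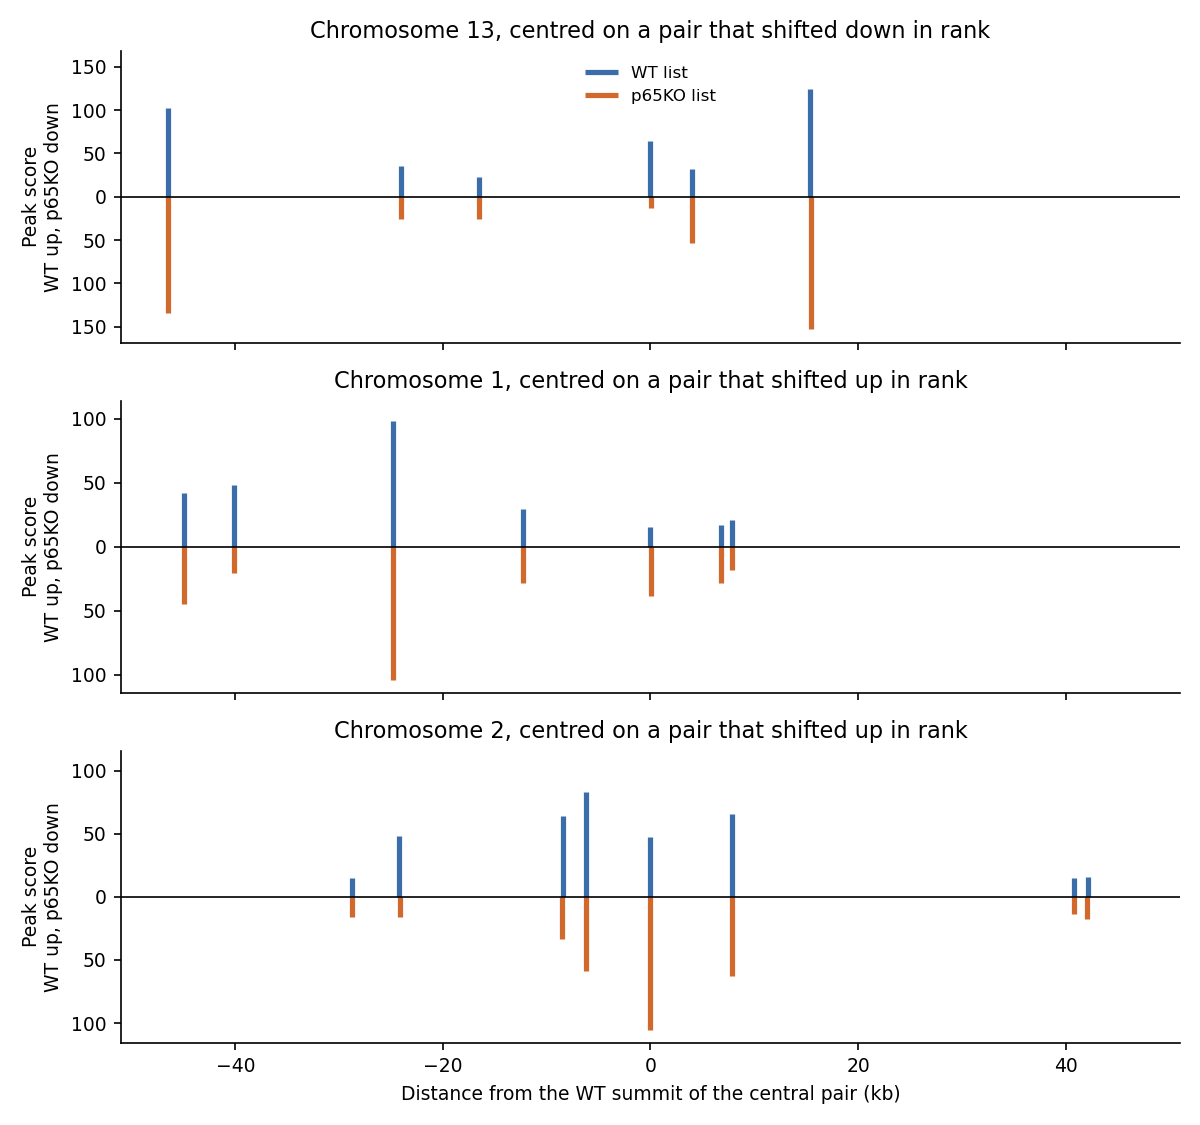
Authors' peak score of every IRF4 summit within 50 kb of 3 shifted pairs, WT upward in blue and p65KO downward in orange (y axis), against distance from the central WT summit in kb (x axis). In the chromosome 13 locus the bar at 0 is 64.5 in WT and 13.1 in p65KO while the bars on both sides reach similar or greater heights in p65KO, apart from the one near 24 kb below.

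The closest neighbours exchanged order in a larger share of cases than more distant ones, as counts over summits with no test. Of 75 adjacent pairs no more than 2 kb apart, 25 (33.3%) had the stronger position in WT as the weaker one in p65KO, against 51 of 261 (19.5%) at 2 to 10 kb and 142 of 684 (20.8%) at 10 to 50 kb. An example is chr9:123844260, which scored 46.2 in WT and 105 in p65KO beside a position 1195 bp below that scored 91.0 and 64.1. Spearman's rho between the shifts of adjacent pairs was -0.21 within 2 kb, 0.02 at 2 to 10 kb and 0.10 at 10 to 50 kb, across neighbours that share the same lists. Without crowded p65 regions, defined as at least 3 p65 summits each no more than 50 kb from the next, the share within 2 kb was 33.8% of 71.

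The share of downward shifts at positions near a p65 summit was close to that of all pairs. The share of upward shifts was lower, from 2 pairs. A p65 summit lay within 200 bp of 111 pairs (3.09% of all), and 17 of these (15.3%) were at least 25 points lower in p65KO, against 16.9% of all pairs. Upward shifts of this size were seen in 2 of the 111 (1.80%, against 6.04%). Read the other way, p65 was near 17 of 607 downward pairs (2.80%, 95% Wilson interval 1.76 to 4.44), 2 of 217 upward pairs (0.922%, 0.253 to 3.30) and 92 of 2770 others (3.32%, 2.72 to 4.06). The intervals cover counting error over summits only. Because p65 was mapped after another stimulation, RelA binding under the conditions of the IRF4 precipitation was not measured. Without an input library, signal present in any precipitation could not be told apart from binding at the 111 pairs.

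The median shift was -3.27 points at the 111 pairs and -3.49 points at the 3483 without p65. With ranks over the pairs the medians were -0.89 and 0.35 points, and 13 of the 111 (11.7%) were lower against 11.4% of all pairs and 5 (4.50%) higher against 10.4%. The 111 pairs held higher WT percentiles, with a median of 76.80 against 64.93. Below the highest WT decile, 15 of 75 pairs with p65 (20%) and 569 of 2968 without (19.2%) were at least 25 points lower. At least 25 points higher were 2 of the 75 (2.67%) and 215 of the 2968 (7.24%). In the highest WT decile 2 of 36 with p65 (5.56%) and 21 of 515 without (4.08%) were lower, and none was higher.

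Of the 111 pairs, 41 lay in crowded p65 regions, and 6 of the 17 downward ones were among them. Pairs just beyond the edge of such a region count as outside, as chr9:3038151 and chr2:98502891 did. Without those regions 11 of 70 pairs with p65 (15.7%) were lower. The lowest of these 11, chosen after their values were seen, were chr5:137633112, with IRF4 scores of 51.5 in WT and 19.2 in p65KO, and chr12:68160496, with 72.4 and 22.1. Their shifts were -54.20 and -52.47 points, and p65 summits lay 56 and 26 bp from the WT IRF4 summit. Both upward pairs lay outside those regions, at chr10:13806127 (14.5 and 37.5) and chr14:43224627 (15.2 and 30.8), the second named after its values were seen.

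Pairing accounted for every summit of the 2 lists. The WT list divided into 3594 paired summits (64.96%, 63.7 to 66.2) and 1939 without a partner, of which 95 had a p65KO summit within 1 kb and 1844 had none. The p65KO list divided into the same 3594 (84.2%, 83.0 to 85.2) and 676 without, of which 62 had a WT summit within 1 kb and 614 had none. The share paired was 29.4% in the lowest and 99.6% in the highest WT decile, and 59.3% and 100% in the p65KO list. Just inside the limit, 22 summits of each list had their neighbour at over 150 and up to 200 bp, with median scores of 24.75 in WT and 16.4 in p65KO. Just outside, at over 200 and up to 250 bp, were 15 of each, with medians of 21.1 and 19.5.

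**Figure D5:**
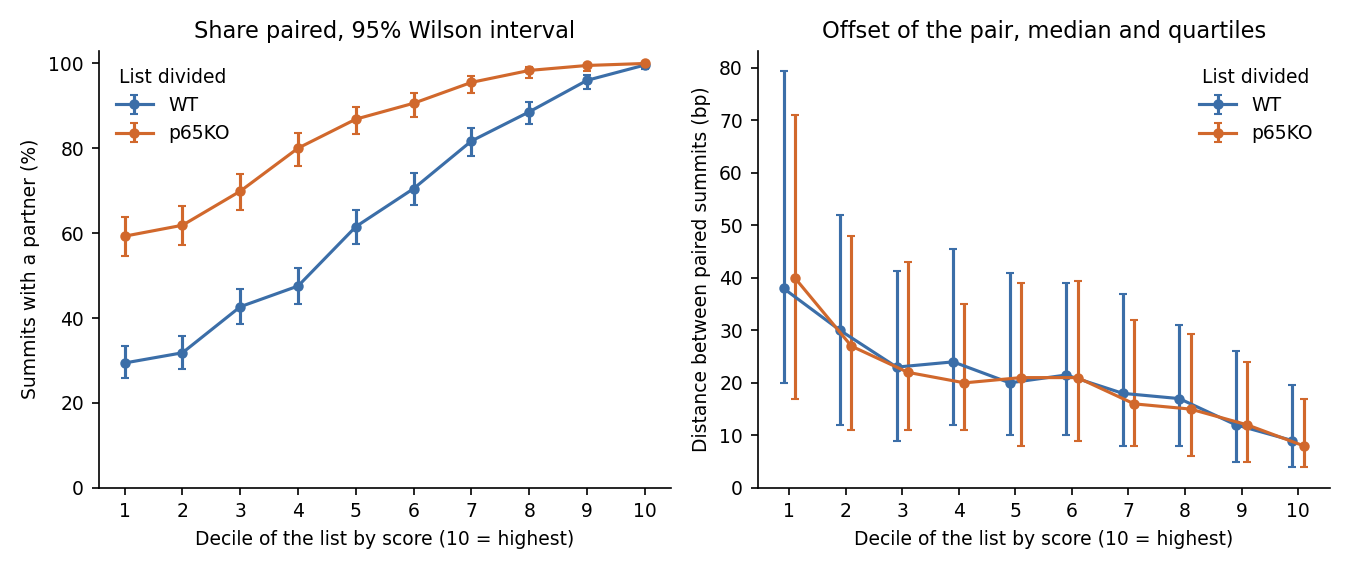
Left, share of summits with a partner in the other list (%, y axis) by decile of the list (x axis, 10 = highest), for the WT list in blue and the p65KO list in orange, with 95% Wilson intervals. Right, distance between the paired summits (bp), median with quartiles; it falls from 38 bp in the lowest to 9 bp in the highest WT decile.

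The paired summits were closely aligned, which the 200 bp limit did not require. Their median offset was 17 bp (quartiles 7 and 35), 3094 of the 3594 (86.1%) were within 50 bp, and 79 fell on the same base. The offset was smaller at stronger positions, with a median of 38 bp in the lowest and 9 bp in the highest WT decile. It was 22 bp for pairs at least 25 points lower, 23 bp for those at least 25 points higher and 16 bp for the rest.

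Strong positions without any partner were rare in WT and weaker in p65KO. The highest unpaired WT summit with no p65KO summit within 1 kb was chr3:94183949, with a score of 148.5 (percentile 98.65). It was followed by chr4:32406763 (75.8), chr9:123782258 (73.2), chr5:42055698 (67.9) and chr9:88531872 (67.9). The highest p65KO summits without a WT summit were chr1:137495189 (57.1, percentile 82.40), chr11:5906427 (47.9), chr11:86152667 (45.8), chr12:92020105 (44.2) and chr3:130857695 (42.8). In the highest WT decile 2 summits were unpaired, and in the highest p65KO decile none. The p65 summit nearest to any of these 10 positions was 155430 bp away, a distance not compared with those of other summits. A p65 summit lay within 200 bp of 57 of all 1939 unpaired WT summits and of 34 of all 676 unpaired p65KO summits. On the autosomes it was 57 of 1918 (2.97%) and 29 of 655 (4.43%), against 2.90% of the 3551 autosomal pairs.

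In an unplanned comparison by chromosome, X had the highest share of p65KO summits without a partner, and the fewest summits. Each list had 64 summits there, a ratio of 1.00, whereas the p65KO list had 4206 and the WT list 5469 on the autosomes, a ratio of 0.769 (0.711 on chromosome 2 to 0.836 on chromosome 1). Of the 64 p65KO summits on X, 21 (32.8%, 22.6 to 45.0) had no WT partner, against 655 of 4206 on the autosomes (15.6%, 14.5 to 16.7) and at most 21.1%, on chromosome 5, for a single autosome. A p65 summit lay within 200 bp of 5 of these 21 (23.8%), of 29 of the 655 on the autosomes (4.43%) and of none of the 21 unpaired WT summits on X. Of the 21 p65KO summits, 3 lay in crowded p65 regions, and their median score was 17.4 against 17.5 on the autosomes. The WT shares were alike, at 32.8% (22.6 to 45.0) on X and 35.1% (33.8 to 36.3) on the autosomes. No interval was made for a single autosome. The 43 pairs on X had a median shift of -3.85 points against -3.48 points on the autosomes, and 10 of the 43 (23.3%) were at least 25 points lower against 16.8% on the autosomes and 16.9% of all pairs. On unplaced Y sequence, outside the pairs, the WT list had 4 summits and the p65KO list 0, and whether the sex of the animals had a part in either count was not tested.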

How the data were processed

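Chromatin immunoprecipitation sequencing covered IRF4 in 3 WT and 2 p65KO samples and p65 in 2 WT samples. The authors deposited 1 summit list per group, whose scores are −log10 significance values. No source says whether these are p-values or q-values. The submitters' processing notes name MACS2 2.1.0, Subread, featureCounts and build mm9, and, per the labels, libraries were sequenced on an Illumina HiSeq. Per the peak names, q cut-offs were 1e-06 for IRF4 and 0.05 for p65, and no input was used. How the replicates of a group were merged is likewise not stated.

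Summits outside chromosomes 1 to 19 and X were left out. Percentile was 100 × (rank − 0.5) / n with tied scores averaged. Pairing and ranking over the pairs were tested on simulated data with known pairs and downward shifts. Ranking over whole lists and upward shifts were not covered by it. Intervals are 95% Wilson. No test was made, since each group has 1 pooled list, and depth per sample is unknown.

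Positions named are the 10 largest shifts each way, over all pairs and among pairs in the highest decile of either list, the 10 highest mean percentiles and the 5 highest unpaired summits of each list. Members, thresholds and lists were chosen with earlier results of these data known. No mm9 genome or annotation was used here, so planned gene, location and motif descriptions were not made. Alternatives were other pairing distances (100 and 500 bp), equal list lengths, ranks over pairs, thresholds of 15 and 35 points, summits above the median score, autosomes alone, no crowded p65 regions, and p65 within 1 kb. The 3 display loci, the examples near p65 and the neighbour comparison were chosen after values were seen. The comparison by chromosome was not planned in advance. The software was scipy 1.17.1, numpy 2.4.6, matplotlib 3.10.9 and pandas 2.3.3 under Python 3.11.15.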

Additional observations from a re-analysis of the deposited data

Results flagged for a closer look

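IRF4 summits also lay on sequence outside the pairs, on unplaced contigs and the mitochondrial genome. The WT list had 97 there (1.72% of it) and the p65KO list 42 (0.974%), with median scores of 22.2 and 24.7. The highest scored 268 in WT and 255 in p65KO. Unplaced Y sequence held 4 of the WT summits, with scores from 13.8 to 27.6, and none of the p65KO list.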

How the results depend on the processing

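No paired analysis was possible because each group is a single pooled list, and for the same reason no replicate could be left out. The direction of the median shift depended on the ranking: it was -3.49 points over whole lists, 0.77 points with lists of equal length and 0.22 points with ranks over the pairs alone. The larger number of downward pairs was likewise tied to ranking whole lists. Recounted, the 607 downward and 217 upward pairs became 339 and 419 with equal length, 410 and 375 with ranks over the pairs, 990 and 455 at a threshold of 15 points, and 357 and 91 at 35 points. Among the 1793 pairs made from summits above each list's median score they were 320 (17.8%) and 124 (6.92%), shares close to the 16.9% and 6.04% reported. Shares paired were 63.5% (WT) and 82.2% (p65KO) within 100 bp and 74.9% of each with equal length. With the summits of all 3 lists in crowded p65 regions removed, 1.77% of 3551 pairs and 1.67% of 600 downward pairs had p65. With the p65 summits there kept, it was 1.97% of 3552 and 1.83% of 601, since some pairs lie just outside a region's edge. Above the median score the shares were 3.85% and 4.69%. The other 54 values stayed within the 95% interval of the reported value, within 1.5 times for counts, or within 0.05 for rho, which ran from 0.724 to 0.746. Some of these could not move: thresholds and ranks over the pairs leave the share of all pairs with p65 unchanged. Others had wide intervals: the share of upward pairs with p65 was 0.922% (0.253 to 3.30) as reported and 2.20% at 35 points, each from 2 pairs. Depth is unknown and weak scores are heavily tied, which limits ranks most in the lower deciles. Motif windows were not analysed here.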
